A study of Mus musculus with 4 samples.

Results

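Chromosome 7 carried 2137 of the 39231 regions of the mouse genome at which captured DNA of satellite cells had fewer tags after tamoxifen than after oil. They are every region that the authors' list places on this chromosome, and the list was selected on the measured tags themselves, with a q limit of 1e-04. The tags and folds of the regions are therefore given as a description, with no test. The other autosomes held 36444 regions.

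The study measured DNA methylation in satellite cells, the stem cells of skeletal muscle, taken from hindlimb muscle of 9-week-old mice and cultured for 3 days. Tamoxifen mice received 5 daily injections of 150 µl of tamoxifen at 20 mg/ml, which switches on a Cre recombinase and deletes Uhrf1. Control mice are labelled oil. Each treatment gave 1 library of captured methylated DNA and 1 of the non-methylated remainder. The Cre driver, the Uhrf1 allele and the number of mice per library are not given in the sources used here. With 1 library per treatment there is no spread between animals, and deletion of Uhrf1 cannot be told apart from exposure to tamoxifen, the animals used, the culture or the capture. The file header does not state which DNA part its alignments came from, and they are read here as the captured methylated part. Captured DNA holds no expression, so the satellite cell identity of the cultures could not be checked against marker genes. Regions higher after tamoxifen were not analysed here.

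Uhrf1 binds hemimethylated CpG sites behind the replication fork and brings the maintenance methyltransferase Dnmt1 to them, so that methylation is copied to the new strand. Chromosome 7 of the mouse holds large tandem arrays of zinc finger genes, many of them KRAB repressors of transposable elements. It also holds arrays of olfactory receptor genes and of the vomeronasal receptors Vmn1r and Vmn2r, which are expressed in sensory neurons and silent elsewhere. Imprinted genes, whose maternal and paternal copies carry different methylation, lie in several domains of the chromosome, among them the Peg3, Snrpn-Ube3a, Igf2-H19 and Kcnq1 domains.

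The promoters of these gene groups differ in CpG number, which bears on how much DNA an MBD2 protein can capture, so 1 to 2 promoters of each group are shown. Each line is a RefSeq promoter of GRCm38.p6, from 250 bases before to 50 bases after the start, read 5′ to 3′ on the gene's strand with CpG sites in capitals. Zfp419 (chr7:9065391-9065690, minus strand), Peg12 (chr7:62464461-62464760, minus strand) and Tsks (chr7:44942990-44943289, plus strand) are the promoters under the region of highest fold among zinc finger genes, imprinted genes and protein-coding genes of other gene-rich stretches. Zfp28 (chr7:6383068-6383367, plus strand), Olfr33 (chr7:102714362-102714661, minus strand) and Vmn1r177 (chr7:23866400-23866699, minus strand) have no region and are the members of median length among such genes of their families.
Zfp419: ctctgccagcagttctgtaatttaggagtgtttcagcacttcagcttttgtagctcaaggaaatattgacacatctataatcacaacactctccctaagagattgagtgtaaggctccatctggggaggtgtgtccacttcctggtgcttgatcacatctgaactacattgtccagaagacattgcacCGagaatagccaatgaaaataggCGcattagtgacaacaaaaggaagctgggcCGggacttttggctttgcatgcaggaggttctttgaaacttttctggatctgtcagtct
Zfp28: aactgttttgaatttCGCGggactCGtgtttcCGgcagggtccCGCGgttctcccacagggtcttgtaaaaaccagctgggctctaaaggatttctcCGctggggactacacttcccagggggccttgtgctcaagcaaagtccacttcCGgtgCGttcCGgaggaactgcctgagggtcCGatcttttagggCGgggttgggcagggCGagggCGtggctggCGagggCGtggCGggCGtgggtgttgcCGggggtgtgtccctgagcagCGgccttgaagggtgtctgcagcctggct
Peg12: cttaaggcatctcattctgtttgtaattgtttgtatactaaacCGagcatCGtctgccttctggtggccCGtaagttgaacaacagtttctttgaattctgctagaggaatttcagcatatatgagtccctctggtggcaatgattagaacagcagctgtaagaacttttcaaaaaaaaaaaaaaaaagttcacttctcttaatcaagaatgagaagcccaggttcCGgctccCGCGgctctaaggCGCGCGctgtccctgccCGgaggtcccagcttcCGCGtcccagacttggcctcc
Olfr33: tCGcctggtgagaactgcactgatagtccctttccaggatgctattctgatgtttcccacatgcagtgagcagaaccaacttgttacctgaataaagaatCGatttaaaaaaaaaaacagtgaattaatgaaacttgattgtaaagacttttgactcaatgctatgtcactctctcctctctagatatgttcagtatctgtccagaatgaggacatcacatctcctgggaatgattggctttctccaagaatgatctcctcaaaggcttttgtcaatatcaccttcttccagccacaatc
Vmn1r177: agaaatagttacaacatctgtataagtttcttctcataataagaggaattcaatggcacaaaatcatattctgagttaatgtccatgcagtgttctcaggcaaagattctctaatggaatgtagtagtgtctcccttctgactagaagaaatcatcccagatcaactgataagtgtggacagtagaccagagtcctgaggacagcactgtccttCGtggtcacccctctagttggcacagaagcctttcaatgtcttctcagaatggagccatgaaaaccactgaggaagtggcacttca
Tsks: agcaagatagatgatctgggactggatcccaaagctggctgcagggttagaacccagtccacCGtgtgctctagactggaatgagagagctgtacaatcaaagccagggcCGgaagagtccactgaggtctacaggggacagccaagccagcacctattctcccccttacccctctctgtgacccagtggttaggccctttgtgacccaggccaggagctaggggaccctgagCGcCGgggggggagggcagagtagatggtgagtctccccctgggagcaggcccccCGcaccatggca

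The promoter of Zfp419, which RefSeq lists as a lncRNA, has 3 CpG sites, and the region at its edge (chr7:9065127-9065437) had 5 tamoxifen tags, against 29 oil tags. Peg12, a Frat-family gene of the Snrpn-Ube3a domain, has 12 CpG sites in its promoter. The region across it (chr7:62464414-62464703) had 71 tamoxifen tags, against 139 oil tags. Tsks, a testis kinase substrate, has 5 CpG sites, and the region at its start (chr7:44943275-44943478) had 2 or fewer tamoxifen tags, against 22 oil tags. Zfp28 has 20 CpG sites, Olfr33 has 2 and Vmn1r177 has 1. The zinc finger promoter without a region is thus the richest in CpG of the 6, and both receptor promoters are nearly free of CpG.

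Chromosome 7 had the highest density of protein-coding genes of the 19 autosomes, at 14.2 genes per Mb, against 8.20 per Mb on the other autosomes. Its density of regions ranked only 11, at 15.03 per Mb (95% interval 14.4 to 15.7), against 16.1 per Mb (16.0 to 16.3) on the other autosomes. The ratio of the densities was 0.932 (0.891 to 0.973). Intervals of densities are exact Poisson limits, and those of ratios and shares are exact Clopper-Pearson limits. They treat regions or genes as independent and cover counting error only. For each coding gene there were 1.06 regions on chromosome 7, against 1.97 on the other autosomes. Olfactory and vomeronasal receptors made up 415 of the 2025 coding genes of chromosome 7 (20.5%), against 5.61% of those of the other autosomes. Their clusters covered 12.7% of the chromosome and held 5.33% of its regions. Outside them the density was 16.3 regions per Mb (15.6 to 17.0).

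The regions of chromosome 7 were close in tags and fold to those elsewhere. Their median was 14 tamoxifen tags, against 51 oil tags, over the summit, and the medians on the other autosomes were the same. The fold is the authors' ratio of oil to scaled tamoxifen tags, each with 1 added, so a higher fold means fewer tags after tamoxifen. Its median was 4.58 on chromosome 7, with quartiles of 3.66 and 5.82, and 4.62 on the other autosomes. A fold of 4 or more was found in 1390 regions of chromosome 7 (65.0%), against 66.3% on the other autosomes. The median length was 260 bp, and all 2137 regions together covered 632 kb. Closest to the q limit was chr7:9335098-9335314, with 41 tamoxifen tags, against 61 oil tags, and a −log10 q of 4.04. Sites beyond the limit were not analysed here.

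The 10 highest folds lay in or near genes of varied function. In Lhpp, a histidine phosphatase gene, chr7:132619070-132619288 had 3 tamoxifen tags, against 58 oil tags (fold 17.9, 95% interval of the scaled tag ratio 8.26 to 127). In Lat, which encodes an adaptor of the T cell receptor, chr7:126367609-126367935 had 3 tamoxifen tags, against 54 oil tags (fold 16.7). In Dlg2, a synaptic scaffold gene, chr7:91431647-91432021 had 4 tamoxifen tags, against 62 oil tags (fold 15.6). These 3 regions kept a few tags each, and their intervals are wide. The fourth, in the lncRNA B130024G19Rik beside the transcription factor gene Nr2f2, had 4 tamoxifen tags, against 57 oil tags (fold 14.3). The other 6, with folds of 11.9 to 12.5, lay in Ceacam3 and Plekha4, 1302 bp from Zg16, and between 5120 and 31845 bp from Tcerg1l, Wee1 and Ap2s1. The 5 regions with most oil tags had lower folds. The first, in Dock1, a guanine exchange factor gene that acts in myoblast fusion, had 139 tamoxifen tags, against 251 oil tags (fold 2.36). The second, in the muscle glycogen synthase gene Gys1, had 113 tamoxifen tags, against 228 oil tags (fold 2.63). The other 3, in the pseudogene Atp6v0c-ps1, in Nipa1 and 82466 bp from Otoa, had 115 to 202 tamoxifen tags, against 205 to 225 oil tags. The Otoa site had the lowest fold of the chromosome, 1.46.

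In 142 full windows of 1 Mb the number of regions ran from 0 to 55, with quartiles of 5 and 21 and a median of 11. The 2252 windows of the other autosomes had the same median, with quartiles of 5 and 24. Windows of 30 or more regions made up 23 of 142 (16.2%), against 16.5% of the other autosomes' windows. The most regions, 55, lay at 29 to 30 Mb, a window of 24 coding genes that holds Ryr1, the calcium release channel of muscle, and part of a zinc finger cluster. The window at 45 to 46 Mb had 53 regions and 66 coding genes, and those at 30 to 31 and 127 to 128 Mb had 49 regions each, with 56 and 52 coding genes. The window at 46 to 47 Mb followed with 48 regions and only 22 coding genes. Of these 5 windows, 3 hold zinc finger cluster sequence. The windows at 29 to 30 and 30 to 31 Mb share the same cluster, which held 27 regions in all, so most of their regions lay outside it. The window at 127 to 128 Mb holds a cluster of 38 regions. The single window without a region, at 54 to 55 Mb, overlaps Luzp2 and held the midpoint of no coding gene.

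Windows rich in genes differed by the kind of gene, with ranges that overlapped. The 15 windows with 20 or more coding genes of which 10 or more were receptor genes had 3 to 17 regions, with a median of 7. The 22 windows with 20 or more coding genes and fewer receptor genes had 7 to 55 regions, with a median of 34.5. At 103 to 104 Mb, where 49 of 56 coding genes are olfactory receptors, 5 regions were listed. Over all 142 windows Spearman's rho between regions and coding genes was 0.50, and it was 0.65 when genes of the 3 families were not counted. On the other autosomes the values were 0.65 and 0.69 over 2252 windows. These rhos describe windows of the same 2 libraries and are not a test.

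**Figure D1:**
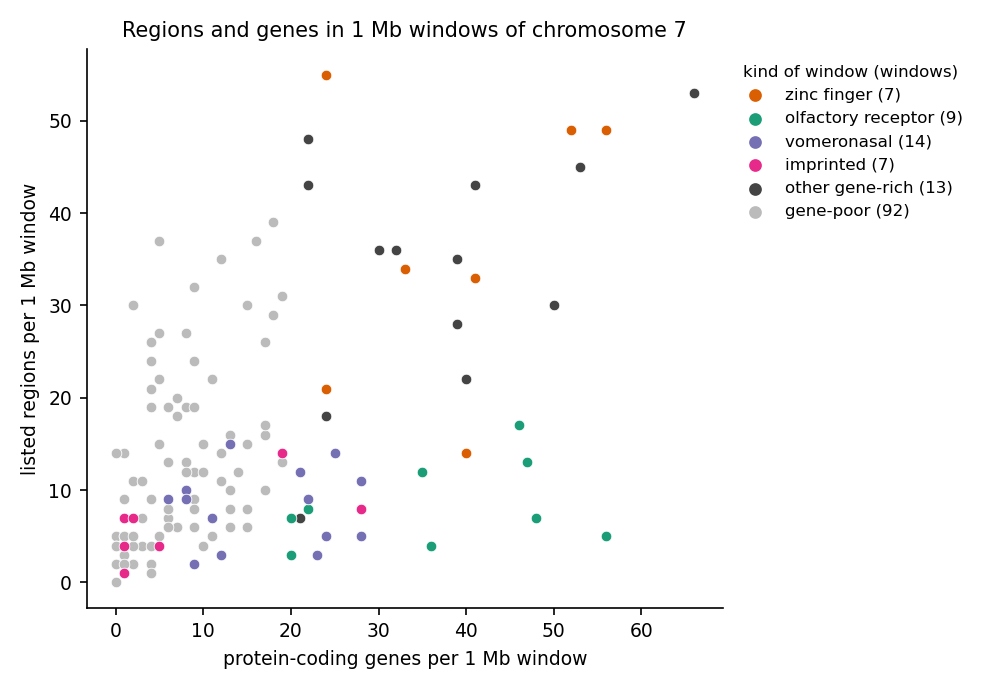
Each point is a 1 Mb window of chromosome 7, with its protein-coding genes on the horizontal axis and its listed regions on the vertical axis, coloured by the kind of gene it holds. Olfactory receptor windows stay between 3 and 17 regions, while zinc finger windows reach 55 and other gene-rich windows 53.

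The stretches compared were defined from gene symbols and positions alone. Zinc finger genes were those with Zfp, Zscan, Zim or Zik symbols, olfactory receptors those with Olfr, and vomeronasal receptors those with Vmn1r or Vmn2r. Family members under other symbols counted as other genes. A cluster was a run of 5 or more genes of 1 family with gaps of at most 500 kb, and an imprinted domain ran from the first to the last of its listed genes. Other gene-rich stretches were the 20 windows of 1 Mb with 20 or more coding genes outside the 3 families, less any cluster or domain. They spanned 15.7 Mb with 39.3 coding genes per Mb, and held 518 regions, or 32.9 per Mb (30.1 to 35.9). Coding genes covered 58.1% of that sequence.

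Zinc finger clusters came close to this level, and the other kinds lay far below it. The 9 zinc finger clusters held 187 regions in 6.97 Mb, or 26.8 per Mb (23.1 to 31.0). This was 0.816 of the density of other gene-rich stretches (0.686 to 0.966). Only 60 of the 187 regions (32.1%) lay on or within 2000 bp of a zinc finger gene. A further 84 (44.9%) lay only at other coding genes, and 43 at neither. Of the 203 coding genes in these clusters, 114 are not zinc finger genes by symbol. The 6 olfactory receptor clusters held 29 regions in 5.56 Mb, or 5.21 per Mb (3.49 to 7.49), at a ratio of 0.158 (0.105 to 0.230). The 7 vomeronasal clusters held 85 regions in 12.6 Mb, or 6.76 per Mb (5.40 to 8.36), at a ratio of 0.206 (0.161 to 0.259). The olfactory receptor clusters were the richest in genes, with 47.5 coding genes per Mb, and the poorest in regions. The 4 imprinted domains held 36 regions in 5.06 Mb, or 7.12 per Mb (4.98 to 9.85), at a ratio of 0.216 (0.150 to 0.303), with 5.73 coding genes per Mb. Leaving out the 3.81 Mb of the Snrpn-Ube3a domain, which was done after the data were seen, raised the imprinted ratio to 0.51. The rest of the chromosome, with 7.42 coding genes per Mb, had 13.3 regions per Mb.

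Gene cover moved with these densities. Coding genes covered 46.8% of zinc finger clusters, 15.2% of olfactory receptor clusters, 16.5% of vomeronasal clusters and 32.6% of imprinted domains. The part of gene cover, CpG density, repeats and mappability in the low receptor densities was not tested, and the genome sequence was not used here. Some stretches belong to 2 kinds. Zinc finger and vomeronasal clusters share 1466 kb with 14 regions, and zinc finger clusters share 325 kb with 8 regions with the Peg3 domain. Restricted to stretches of 1 kind, an alternative chosen after the data were seen, zinc finger clusters had 32.3 regions per Mb, a ratio of 0.98 to other gene-rich stretches, so the deficit of zinc finger clusters did not remain there.

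**Figure D2:**
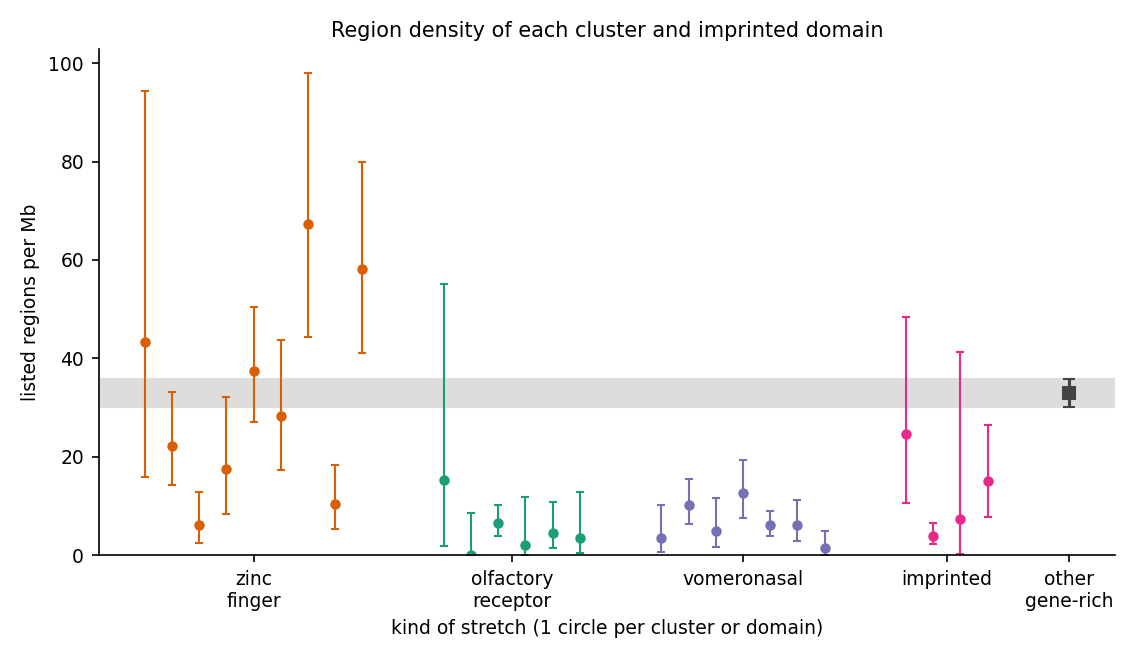
Circles give listed regions per Mb of each cluster or imprinted domain with exact 95% Poisson limits, and the square and grey band give other gene-rich stretches as a whole, at 32.9 per Mb. Zinc finger clusters range from 6.21 to 67.3 per Mb, while the 7 vomeronasal clusters and 5 of the 6 olfactory receptor clusters have limits wholly below the grey band.

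Zinc finger clusters differed widely among themselves. The densest, at chr7:29768552-30169775 from Zfp84 to Zfp146, holds 15 coding genes, all of them zinc finger genes, and had 27 regions, or 67.3 per Mb (44.3 to 97.9). The cluster at chr7:127233061-127885996, in which 10 of 31 coding genes are zinc finger genes, had 38 regions, or 58.2 per Mb (41.2 to 79.9). At the other end, the cluster at chr7:10487224-11614112 with Zik1 and the Zscan4 genes, which act in the early embryo and in embryonic stem cells, had 7 regions, or 6.21 per Mb (2.50 to 12.8). The limits lay wholly above those of other gene-rich stretches in the 2 densest clusters and wholly below them in 2. The low ones are this cluster and the one at chr7:42473386-43618279, with 12 regions, or 10.5 per Mb, and both overlap a vomeronasal cluster. The highest fold of all zinc finger clusters was in Prr14 (chr7:127475046-127475371), with 2 or fewer tamoxifen tags, against 30 oil tags (fold 10.001). In the densest cluster the region of highest fold lay in Zfp382, with 2 or fewer tamoxifen tags, against 24 oil tags (fold 8.07). The region with most oil tags there, beside Zfp74, had 70 tamoxifen tags, against 194 oil tags. Other high folds in zinc finger clusters belonged to neighbours of another kind, such as the DNA repair scaffold gene Xrcc1, with 8 tamoxifen tags, against 61 oil tags (fold 8.73).

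Olfactory receptor clusters were low throughout. The largest, at chr7:102476773-105369317, holds 126 coding olfactory receptor genes and had 19 regions, or 6.57 per Mb (3.95 to 10.3). The cluster at chr7:86268730-86695384, with 15 coding receptor genes, had none (exact limit 8.65 per Mb). The clusters at chr7:107814586-108894405, chr7:106677534-107148329 and chr7:140162010-140722212 had 5, 1 and 2 regions. The cluster at chr7:6439902-6570919 had 2 regions in 0.131 Mb and limits of 1.85 to 55.1 per Mb, too wide to set it apart. The strongest fold in these clusters was at chr7:102512156-102512467, outside genes and nearest to Olfr545, with 3 tamoxifen tags, against 36 oil tags (fold 11.3). Of the 29 regions, 14 lay on or within 2000 bp of an olfactory receptor gene, 3 only at other coding genes (Trim34a and Trim30a) and 12 at neither. A midpoint within 2000 bp of a RefSeq start was found for 10 of the 29 (34.5%), against 11.6% in other gene-rich stretches and 8.84% of the chromosome's regions. The median olfactory receptor gene is 954 bp long, and a region on a gene of that length lies within 2000 bp of its start. The part of gene length in this share was not tested, and none of the 209 olfactory receptor promoters was overlapped by a region.

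Vomeronasal clusters had a density close to that of the olfactory ones, and most of their regions lay away from the receptor genes. Of the 85 regions, 6 lay on or within 2000 bp of a vomeronasal gene, 18 only at other coding genes and 61 (71.8%) at neither, against 17.0% at no coding gene in other gene-rich stretches. Coding genes covered only 16.5% of the vomeronasal clusters, against 58.1% of other gene-rich stretches. The part of gene cover in these shares was not tested. The longest cluster, at chr7:20101158-24055691 from Vmn1r91 to Vmn1r183, holds 86 coding family members and had 24 regions, or 6.07 per Mb (3.89 to 9.03). The cluster at chr7:84810427-86246201, with 12 coding genes among its 37 family members, had 2 regions, or 1.39 per Mb (0.169 to 5.03). The highest density, 12.6 per Mb, was in the cluster at chr7:11653129-13244458, where 19 of 41 coding genes carry no Vmn1r or Vmn2r symbol. The strongest fold in that cluster was in Zbtb45 (chr7:13006435-13006709), with 6 tamoxifen tags, against 44 oil tags (fold 8.07). The highest fold of all vomeronasal clusters (chr7:42966805-42967013) lay 33016 bp from Vmn2r63 and had 3 tamoxifen tags, against 31 oil tags (fold 9.73).

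Where regions were listed, the 2 libraries differed by slightly smaller folds in receptor clusters. The median fold was 3.82 in olfactory receptor clusters, 4.03 in vomeronasal clusters, 4.32 in zinc finger clusters and 4.59 in imprinted domains, against 4.58 in other gene-rich stretches. Olfactory receptor clusters had medians of 18 tamoxifen tags, against 44 oil tags, and vomeronasal clusters had medians of 16.5 tamoxifen tags, against 53 oil tags. Other gene-rich stretches had medians of 14 tamoxifen tags, against 49 oil tags. A fold of 4 or more was reached by 11 of 29 regions in olfactory receptor clusters (37.9%) and by 43 of 85 in vomeronasal clusters (50.6%), against 68.5% in other gene-rich stretches. Since the regions were selected on the same tags, these values describe the list and not every site of the clusters.

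**Figure D3:**
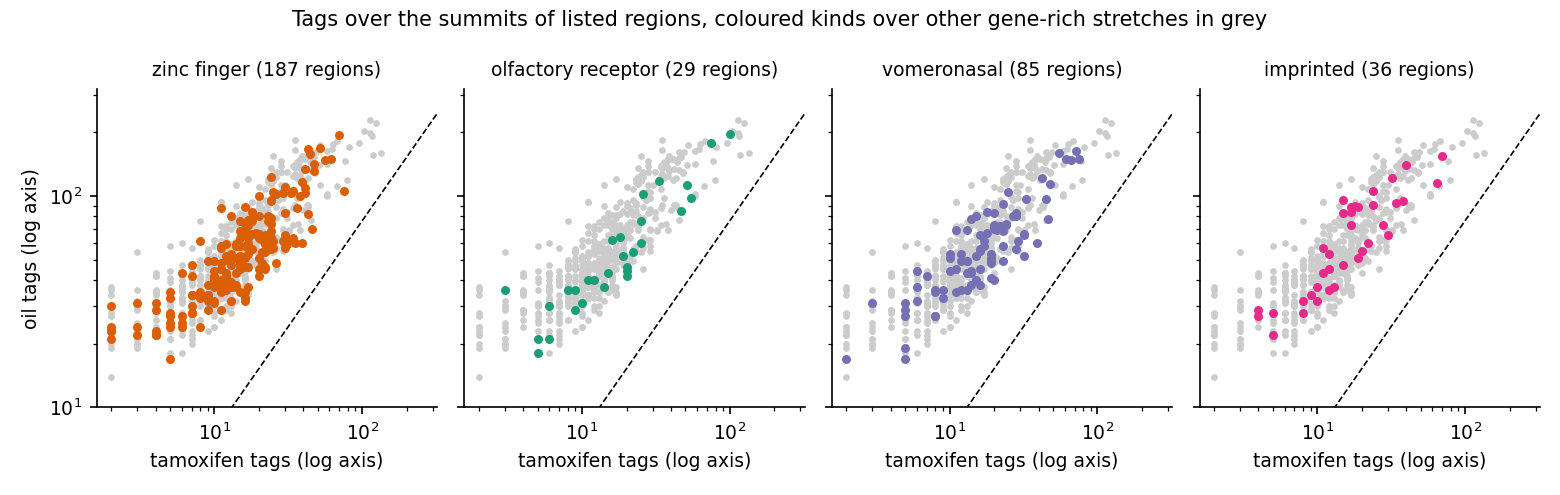
Each point is a listed region with its tamoxifen tags on the horizontal and its oil tags on the vertical axis, both logarithmic, in colour for the kind named above the panel and in grey for other gene-rich stretches. The dashed line marks equal tags after scaling by 0.763, values of 2 or fewer tamoxifen tags are drawn at 2, and the coloured points overlap the grey cloud, with median folds between 3.82 in olfactory receptor clusters and 4.59 in imprinted domains.

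Counted by gene, 46% of the 21523 coding genes of the autosomes and X had a region over them or within 2000 bp. On chromosome 7, 48 of 103 coding zinc finger genes had one (46.6%, interval 36.7 to 56.7), a share near that background, against 141 of 303 (46.5%) on the other autosomes. Olfactory receptor genes had one in 13 of 239 cases (5.44%, 2.93 to 9.12), against 31 of 864 (3.59%) on the other autosomes. Vomeronasal genes had one in 3 of 176 cases (1.70%, 0.353 to 4.90), against 7 of 175 (4%) on the other autosomes. The low shares of both receptor families were thus found on the other autosomes too. Genes outside the 3 families had a region in 679 of 1507 cases on chromosome 7 (45.1%), against 51.3% on the other autosomes. Over all coding genes the share on chromosome 7 was 36.7%, against 48.5% on the other autosomes.

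The receptor genes were also set beside other short genes. Among genes under 10 kb on chromosome 7, 12 of 236 olfactory receptor genes (5.08%) and 1 of 126 vomeronasal genes (0.794%) had a region, against 128 of 603 genes outside the families (21.2%, 18.0 to 24.7). Length was not matched within this class, in which the median gene was 954 bp long for olfactory receptors and 924 bp for vomeronasal receptors, against 4418 bp outside the families. The part of gene length in these shares was not tested. Zinc finger genes of 10 to 50 kb had a region in 32 of 67 cases (47.8%), against 54.3% of genes of that length outside the families. Within 2000 bp of a gene end, where 18.7% of all coding genes had a region, the shares were 26.2% of zinc finger genes (18.0 to 35.8) and 5.02% of olfactory receptor genes, against 22.9% of the genes of other gene-rich stretches. Other genes inside olfactory receptor clusters had a region in 3 of 29 cases (10.3%), and other genes inside vomeronasal clusters in 11 of 54 (20.4%), against 44.9% of the coding genes of other gene-rich stretches. Other genes are those without the family symbol, so receptor genes under other names may be among them.

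**Figure D4:**
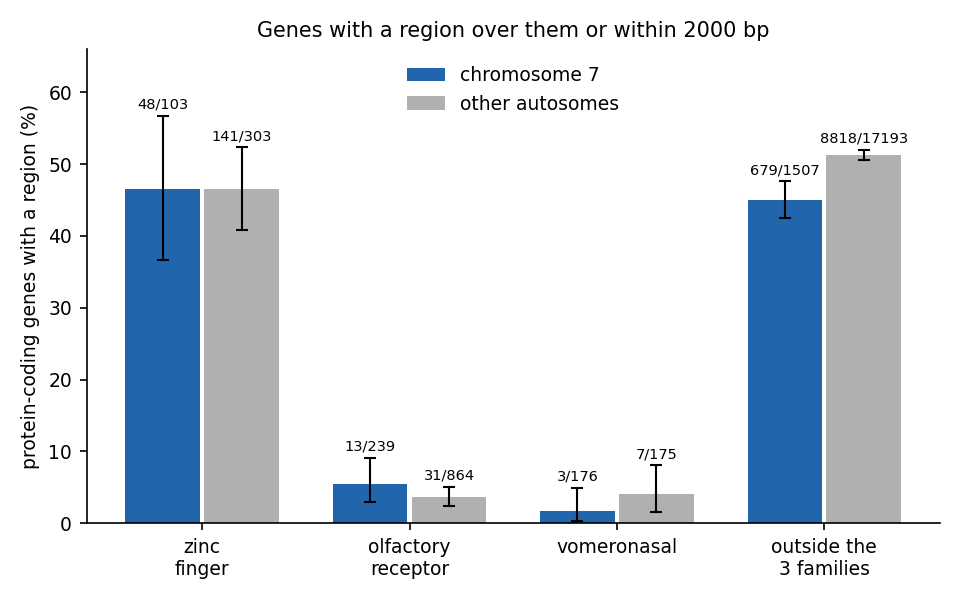
Bars give the share of protein-coding genes with a listed region over them or within 2000 bp, blue for chromosome 7 and grey for the other autosomes, with exact 95% binomial limits and the counts above. Zinc finger genes stand at 46.6% on chromosome 7, against 46.5% on the other autosomes, and both receptor families stay below 6%.

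Among zinc finger genes, Zfp536, a repressor of neuronal differentiation that spans 456017 bp, had 20 regions, the most of any coding gene there. Its region of highest fold (chr7:37774443-37774680), just beyond a gene end, had 2 or fewer tamoxifen tags, against 32 oil tags (fold 10.6). Zfp382, Zfp583 and Zfp507 each had a region with 2 or fewer tamoxifen tags, against 24, 23 and 22 oil tags (folds of 8.07, 7.74 and 7.42). At the lower end, Zfp324 had 39 tamoxifen tags, against 60 oil tags (fold 1.98), and Zfp787 had 46 tamoxifen tags, against 70 oil tags (fold 1.97). Both of these had lower folds than the chromosome's median region.

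Of the 13 olfactory receptor genes with a region, Olfr520 lies outside the clusters and had 3 tamoxifen tags, against 24 oil tags, in the stronger of 2 regions (fold 7.604). Olfr1344 had 26 tamoxifen tags, against 102 oil tags (fold 4.95), and Olfr543 had 9 tamoxifen tags, against 36 oil tags (fold 4.71). The 2 lowest folds, at Olfr66 (2.33) and Olfr474 (2.31), kept 47 and 55 tamoxifen tags, against 85 and 98 oil tags. Of the 3 vomeronasal genes, Vmn1r88 had 2 or fewer tamoxifen tags, against 17 oil tags (fold 5.81), and Vmn2r56 had 10 tamoxifen tags, against 44 oil tags (fold 5.22). The third, Vmn2r60, had 3 regions, the strongest with 16 tamoxifen tags, against 56 oil tags (fold 4.32). Reads of near-identical family members can map to several copies, so the placement of a region among them is uncertain. Among the pseudogenes, 1 of 55 olfactory and 1 of 99 vomeronasal ones had a region.

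Of 38 imprinted genes listed, 37 were found in the gene table, and 18 of these had a region (48.6%, 31.9 to 65.6), a share near the 46% of all coding genes. A region within 2000 bp of a gene end was found in 8 of the 37 (21.6%), near the 18.7% of all coding genes. The 37 include lncRNA, antisense RNA and microRNA genes, while both background shares cover coding genes only. Overlapping or neighbouring genes, such as H19 and Mir675, can share the same region, so the genes are not all independent. Of the 27 genes with a RefSeq start, 5 had a region within 2000 bp of it, namely Peg3, Usp29, Peg12, Inpp5f and Kcnq1ot1. Several of these starts are textbook sites of parent-specific methylation. Peg3 and Usp29 share the same region, and the share of all genes with a region near a start was not computed. Of the 36 regions in the domains, 3 had a midpoint within 2000 bp of a RefSeq start (8.33%), near the 8.84% of the chromosome's regions. The region across the Peg12 promoter is not among the 36, since its midpoint lies just past the end of the domain.

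Peg3, a paternally expressed zinc finger gene, and Usp29, a deubiquitinase gene, are read in opposite directions from neighbouring starts. The region near these starts (chr7:6730900-6731142), whose nearer edge lies 317 bp from the start of Usp29 and 481 bp from that of Peg3, had 13 tamoxifen tags, against 37 oil tags (fold 3.48). Peg3 held 3 further regions in its body, with 9 to 22 tamoxifen tags, against 34 to 60 oil tags, and the strongest of these had a fold of 6.18. The antisense RNA gene Peg3os carries 2 of the Peg3 regions. The strongest region of Usp29 (chr7:6963722-6963936), which also overlaps Zim3, had 4 tamoxifen tags, against 29 oil tags (fold 7.41). Zim1 had 1 region, with 17 tamoxifen tags, against 73 oil tags (fold 5.30). With 8 regions in 0.325 Mb, or 24.6 per Mb (10.6 to 48.5), this was the densest of the 4 domains, and it lies inside a zinc finger cluster.

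The Snrpn-Ube3a domain had 15 regions in 3.81 Mb, or 3.94 per Mb (2.204 to 6.50). Apart from that of Peg12, no RefSeq start of its genes had a region within 2000 bp. The 4 RefSeq starts of Snrpn, a small ribonucleoprotein gene whose main start is the imprinting centre of the domain, lay between 23574 and 86898 bp from the nearest region. Ndn, Magel2 and Mkrn3, intronless paternally expressed genes, were 42979 to 114855 bp away from a region. Peg12 had its promoter region given above, which is not among the 15 because its midpoint lies just past the domain's end. A second region in the gene body (chr7:62463132-62463413) had 32 tamoxifen tags, against 121 oil tags (fold 4.80). Atp10a, a phospholipid flippase gene, had 24 tamoxifen tags, against 106 oil tags (fold 5.54). Snhg14, the host of small nucleolar RNAs that runs antisense to Ube3a, had 4 regions, 2 of them shared with Snrpn, and the strongest had 19 tamoxifen tags, against 89 oil tags (fold 5.81). The highest fold of the domain (chr7:59059938-59060308) lay outside genes, with 17 tamoxifen tags, against 89 oil tags (fold 6.44).

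The Igf2-H19 domain had a single region (chr7:142578243-142578620), 97 bp outside the H19 RNA gene, with 20 tamoxifen tags, against 55 oil tags (fold 3.45). It also lies within 2000 bp of Mir675, the microRNA hairpin of H19. RefSeq lists Mir675 on the minus strand, so the region is upstream of H19, on the side of its start. No region was listed on Igf2, Ins2, Igf2os or Nctc1. The Kcnq1 domain had 12 regions, or 15.2 per Mb (7.85 to 26.5). Kcnq1ot1, the antisense RNA that silences the domain in cis from within the potassium channel gene Kcnq1, had a region 1332 bp downstream of its start (chr7:143295084-143295346) with 34 tamoxifen tags, against 93 oil tags (fold 3.49). Kcnq1 itself had 4 regions, the strongest with 15 tamoxifen tags, against 83 oil tags (fold 6.75). The region of the domain with both the highest fold and most oil tags was in Cars, the cysteinyl-tRNA synthetase gene (chr7:143567980-143568332), with 15 tamoxifen tags, against 96 oil tags (fold 7.80). Nap1l4, a histone chaperone gene, had 4 tamoxifen tags, against 27 oil tags (fold 6.91), and Osbpl5, a lipid transfer gene, had 8 tamoxifen tags, against 32 oil tags (fold 4.65). Tnfrsf23, a decoy receptor gene, had 2 regions, the stronger with 18 tamoxifen tags, against 90 oil tags (fold 6.18). Cdkn1c, Phlda2, Slc22a18 and Ascl2, maternally expressed genes of the domain, had none.

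Outside the domains, Inpp5f, a phosphoinositide phosphatase gene, had 3 regions, the strongest with 6 tamoxifen tags, against 32 oil tags (fold 5.92). Its region nearest to the start, 1420 bp away, had 20 tamoxifen tags, against 56 oil tags. Ampd3, an AMP deaminase gene, had 1 region, with 9 tamoxifen tags, against 41 oil tags (fold 5.34). The regions nearest to the starts of Peg3, Peg12, Inpp5f and Kcnq1ot1 and the one just upstream of H19 had folds of 2.54 to 3.51. These were below the chromosome's median of 4.58. The second Peg12 region, with its midpoint 1238 bp from the start, had a fold of 4.80, above that median. These differences have no test.

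Promoters were rarely overlapped by a region. Of the 2790 RefSeq promoters of 300 bp on chromosome 7, 30 were (1.08%), against 1.28% of 28606 promoters of the other autosomes used. Over the autosomes and X together the share was 1.28%. Zinc finger genes had 2 of 109, olfactory receptors 0 of 209, vomeronasal receptors 0 of 164, imprinted genes 1 of 37 and other gene-rich stretches 6 of 761. The exact intervals of the 2 counts of 0 reach 1.75% of olfactory and 2.22% of vomeronasal promoters, so their shares could not be told from the background. The motif counted was CG, which is its own reverse complement. The median was 14 CpG per zinc finger promoter, 1 per olfactory receptor promoter, 1 per vomeronasal promoter and 10 per imprinted promoter, against 10 in other gene-rich stretches.

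The promoters with a region were those of middle CpG number. On chromosome 7, a region lay over 1 of 836 promoters with 0 to 2 CpG (0.120%), 6 of 554 with 3 to 5 (1.08%) and 11 of 347 with 6 to 10 (3.17%, 1.59 to 5.60). With 11 to 20 CpG it was 12 of 492 (2.44%, 1.27 to 4.22), and with 21 or more 0 of 561 (interval up to 0.655%). The other autosomes gave the same order, with 4.02% at 6 to 10 CpG and 0.135% at 21 or more. Zinc finger promoters were mostly of 11 to 20 CpG (49 of 109), while 306 of 373 receptor promoters had 0 to 2. Most of the promoters with a region on chromosome 7 belonged to lncRNA genes. The share of lncRNA genes among all promoters was not computed, so this is description only. Among those of 11 to 20 CpG, Gm45351 and 2810047C21Rik1 each entered with overlapping promoters under the same region. The hits of that class are thus not all independent, as its interval assumes.

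**Figure D5:**
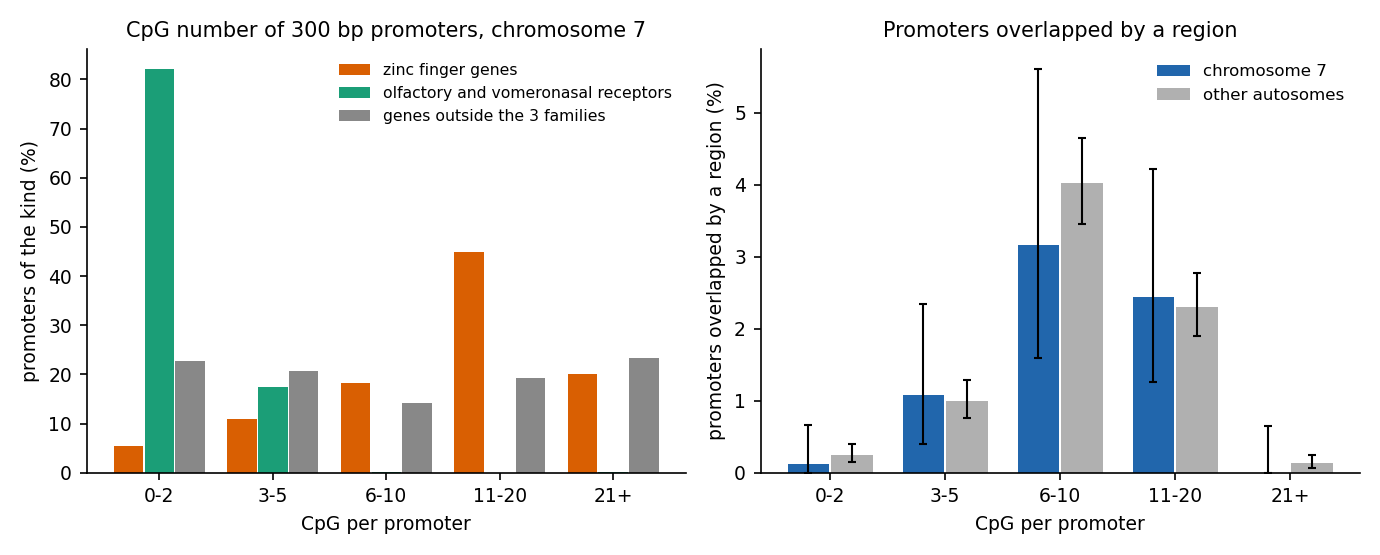
The left panel gives the share of 300 bp promoters of chromosome 7 by their CpG number for zinc finger genes, receptor genes and genes outside the 3 families. The right panel gives the share overlapped by a listed region, chromosome 7 in blue and other autosomes in grey with exact 95% binomial limits, which is highest at 6 to 10 CpG (3.17% on chromosome 7, against 4.02%) and near 0 at both ends.

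Other tandem families of the chromosome also had few regions. Of 187 coding genes in 14 such families, 29 had a region (15.5%), against the 46% of all coding genes. Their median length was 7878 bp, against 17374 bp for all coding genes. Among genes under 10 kb outside the 3 families on chromosome 7, 21.2% had a region. The part of gene length in the tandem share was not tested. Kallikrein protease genes (Klk) had 1 of 26, secretoglobin genes (Scgb) 1 of 36, Mrgpr sensory receptor genes 1 of 19, and the globin genes Hbb and keratin-associated Krtap5 0 of 5 each. Nlrp genes, several of them oocyte genes, had 5 of 13, and Ceacam adhesion genes 5 of 15. The strongest was Ceacam3, with 3 tamoxifen tags, against 38 oil tags (fold 11.9). These families span 0 to 38.5% and are too small to be ordered among themselves.

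Genes of muscle on chromosome 7 had a region in 17 of 25 cases (68.0%, 46.5 to 85.1), against the 46% of all coding genes. The list holds several long genes, among them Sox6 (569905 bp), Adam12 (341899 bp), Igf1r (281412 bp) and Tead1 (227429 bp), and the part of gene length in this share was not tested. Ryr1 had 13 regions, the strongest with 6 tamoxifen tags, against 53 oil tags (fold 9.68). Tead1, a transcription factor of the Hippo pathway, had 8 tamoxifen tags, against 79 oil tags (fold 11.3). Dmpk, the myotonic dystrophy kinase gene, had 2 or fewer tamoxifen tags, against 28 oil tags (fold 9.36). Adam12, a myoblast fusion metalloprotease gene, had 4 tamoxifen tags, against 37 oil tags (fold 9.38). Tnnt1, slow troponin T, had the lowest fold of the list, with 134 tamoxifen tags, against 159 oil tags (1.55). None was listed on Myod1, the master regulator of myogenesis, or on Ckm, Csrp3, Aldoa, Cox7a1, Tnni2, Tnni3 and Tnnt3.

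Cell cycle genes had a region in 4 of 12 cases. Fanci, of the Fanconi anaemia repair pathway, had 10 regions, the strongest with 5 tamoxifen tags, against 35 oil tags (fold 7.48). Blm, a DNA helicase gene, had 8 tamoxifen tags, against 49 oil tags (fold 7.04). Pold1 and Plk1 had 7 and 21 tamoxifen tags, against 30 and 44 oil tags. Of the 6 germline genes listed, 3 had a region. Tex101 had 5 tamoxifen tags, against 33 oil tags (fold 7.06), Tdrd12 had 17 tamoxifen tags, against 71 oil tags (fold 5.16), and Nlrp5 had 48 tamoxifen tags, against 114 oil tags (fold 3.06). With so few genes per list, the cell cycle and germline shares cannot be told from the 46% of all coding genes.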

How the data were processed

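Captured DNA from 1 tamoxifen and 1 oil library was compared by the authors with MACS2 2.2.6, per the file headers and the submitters' processing notes, which also name Trim Galore, HISAT2 and mm10. Oil alignments were the treatment and tamoxifen alignments the control input. After duplicates were removed, 25614791 of 36519772 tamoxifen tags and 19534328 of 35216008 oil tags were left, per the file headers. The deposited pileup is a signal value, the oil tags of 201 bp over the summit. The deposited fold enrichment is a ratio of oil to tamoxifen tags scaled by 0.763, each plus 1. The deposited −log10 p and −log10 q values compare 2 libraries and not 2 conditions, and the heading of their columns was lost, so they were read from their place. No count table was used, and counting depth limits the precision of each region.

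Tamoxifen tags were computed from the pileup and fold. They came out whole within 0.02 in 2087 regions of chromosome 7, and 50 sat at the caller's floor of 2.1 scaled tags, read as 2 or fewer tags. Recomputing −log10 p from these tags gave the authors' values to within 0.00017. Regions were placed by midpoint in stretches and by 1 bp of overlap on genes, with the RefSeq gene and promoter tables of GRCm38.p6. The gene table gives neither strand nor exons, so exons, introns and UTRs were not separated. Gene rows of the chromosomes that start before 3 Mb were left out, since they lie on scaffolds. Of 4152 genes used, 2316 had a promoter in the table, and a chromosome without promoter rows was not used in promoter counts. The overlap, cluster and tag steps were tested on simulated data. Python 3.11.15 with numpy 2.4.6, pandas 2.3.3, scipy 1.17.1 and matplotlib 3.10.9 was used.

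The members, the gene lists and the comparisons were chosen with earlier results of these data known. The text names the 5 windows with most regions and those with none, the 10 highest folds, the 5 regions with most oil tags, the highest fold and most oil tags of clusters or domains, the listed imprinted genes, and list members with a region. Zinc finger and receptor genes, and windows beyond these, were named after their values were seen. Alternatives were a q limit of 1e-10, joined regions, unscaled tags, other gaps, windows and flanks, and 3 added after the data were seen.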

Additional observations from a re-analysis of the deposited data

How the results depend on the processing

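With 1 library per treatment no replicate could be left out, and no alternative turned a direction. The density of chromosome 7 was 12.2 regions per Mb with a q limit of 1e-10, 14.3 with regions within 1 kb joined and 14.1 for tags compared without scaling, and its ratio to the other autosomes moved by less than its counting interval. The median fold was 4.85 as a ratio without the added 1 and 4.90 with a q limit of 1e-10. The zinc finger ratio to other gene-rich stretches was 0.98 both with gene-rich windows of 15 or more genes and with stretches of 1 kind alone, and the imprinted ratio was 0.51 without the Snrpn-Ube3a domain. The cause was not tested. The share of all coding genes of chromosome 7 with a region was 32.4% for gene bodies alone, 42.0% with 5000 bp on either side and 32.4% with a q limit of 1e-10. Of 66 values under an alternative, 53 stayed within the counting interval of the main value, those of both receptor ratios among them, and 13 did not. The 53 include the stretch ratios without regions of 200 or more tamoxifen tags. That setting removed no region from the stretches compared, so these values could not move. Tag counts of single regions are low, so folds of regions with few tamoxifen tags are imprecise. The depth does not allow sites outside the list to be called unchanged.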

Other observations

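Windows poor in genes were not all poor in regions. The 42 windows with under 5 coding genes had a median of 5 regions, but 6 of them had 21 to 30. They hold the developmental regulators Tshz3 (30 regions at 36 to 37 Mb) and Zfp536 (30 at 37 to 38 Mb). Others hold the insulin-like growth factor receptor gene Igf1r (26 at 68 to 69 Mb) and Mgmt and Ebf3 (26 at 137 to 138 Mb). The last hold Fam189a1 (24 at 65 to 66 Mb) and Chd2 (21 at 73 to 74 Mb). These counts are of whole windows, and the genes named carry only part of them. Zfp536 had 20 regions in all and Igf1r 10, and 11 lay at Tjp1, in the same window as Fam189a1. The windows were singled out after their values were seen, and no explanation was tested.

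MicroRNA hairpins were counted too. Of 81 hairpins on the chromosome in the RefSeq table, 2 had a region over them and 11 within 2000 bp. Of all coding genes, 18.7% had a region within 2000 bp of an end. Hairpins are short and no share over features of like size was computed, so their counts are description only. The region over Mir3100 had 15 tamoxifen tags, against 43 oil tags (fold 3.54), and the region over Mir7057 had 26 tamoxifen tags, against 105 oil tags (fold 5.09).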
